A study of Bos taurus with 16 samples.

Results

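Oxidative phosphorylation subunits are the proteins of the mitochondrial respiratory chain and of ATP synthase. Their transcripts were followed in cow blood by 204 array probes of 84 gene symbols, out of 43653 non-control probes of 16966 symbols. Members were chosen by symbol alone, with no use of signal. The symbols were those of the NDUFA, NDUFB, NDUFC, NDUFS and NDUFV series of complex I (80 probes, 38 symbols), SDHA to SDHD of complex II (10 probes, 4 symbols), CYC1 and the UQCR series of complex III (24 probes, 9 symbols), the carrier CYCS (2 probes, 1 symbol), the nuclear COX4 to COX8 series of complex IV (40 probes, 15 symbols) and the ATP5 series of complex V (48 probes, 17 symbols).

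Complexes I and II take electrons from NADH and succinate, complex III passes them to cytochrome c, complex IV hands them to oxygen, and the protons pumped on the way drive ATP synthase, complex V. Most subunits are nuclear genes made in the cytosol and imported, and a small core is encoded by mitochondrial DNA. In blood, white cells and platelets carry mitochondria, while mature mammalian red cells have none. Some symbols hold genes with another role: ATP5S and ATP5SL are related to assembly rather than to the enzyme itself, NDUFA4 is now placed in complex IV, and COX7A2L helps to join complexes into supercomplexes. The ATP5 names are old ones: ATP5A1 and ATP5B are now ATP5F1A and ATP5F1B.

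The blood came from lactating Holstein Friesian cows, 10 in all and 5 per arm, of which the treated arm took a probiotic pack for 60 days; the labels list Saccharomyces cerevisiae, Enterococcus faecium, Lactobacillus acidophilus and products of Aspergillus oryzae and Bacillus subtilis, with rice hulls, calcium carbonate and chicory root. The 4 groups were day 0, probiotic day 60, untreated day 60, and probiotic day 60 with lipopolysaccharide (LPS, a part of the outer wall of Gram-negative bacteria that activates white cells) at 100 ng/ml. Jugular blood was drawn into ACD tubes and held for 30 min at 37 °C in 5% CO2 in every group, and red and white cells were lysed together for RNA (integrity number over 7). Each group was 1 pool of RNA, of which 0.5 µg was labelled with Cy3 and put on 4 arrays of 1 slide. The day 0 pool is labelled with the name of the probiotic cows, before they took the pack; the cows in it are not otherwise given in the sources used here. The p-values below therefore reflect how well 4 arrays of the same RNA repeat each other and, for dim probes, a lower limit set on the signals. They carry no information on the variation among cows. Each group had a slide of its own, so group and slide cannot be told apart. The probiotic and LPS slides were scanned on the same day and the other 2 on days of their own, so in every comparison but that of probiotic with LPS the day of scanning is confounded with the group.

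The probe sequences are shown for 1 subunit each of complexes II, III and V that was called higher in the probiotic group, and for 2 probes of ATP5B that gave opposite results. Each is 60 bases long, written 5′ to 3′ as on the array, and has an open reading frame through its whole length; the one of UQCRFS1 ends at a stop codon. SDHB, UQCRFS1 and ATP5A1 are the iron-sulfur subunit of complex II, the Rieske protein and the alpha subunit of ATP synthase. These probes were chosen after their values were seen. The files used here give no genome positions for the probes.
SDHB (A_73_P045996): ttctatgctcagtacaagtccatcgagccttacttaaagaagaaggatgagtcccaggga
UQCRFS1 (A_73_P036286): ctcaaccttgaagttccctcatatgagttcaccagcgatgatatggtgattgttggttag
ATP5A1 (A_73_P259462): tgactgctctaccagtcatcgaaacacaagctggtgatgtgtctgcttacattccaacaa
ATP5B (A_73_P406256): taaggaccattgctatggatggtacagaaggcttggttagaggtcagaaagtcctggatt
ATP5B (A_73_P037681): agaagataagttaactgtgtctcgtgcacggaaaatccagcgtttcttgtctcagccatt

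Signals are background-subtracted intensities, given as percent of the array's reference signal, which is the 75th percentile of 672 probes that were well above background on all 16 arrays. A value near or below 0 means a spot no brighter than its surroundings. "Above background" below is the scanner software's call "well above background". The slides were not alike. The share of spots above background was 8.26% to 23.0% on the day 0 arrays, 26.4% to 37.1% on the probiotic arrays, 12.002% to 17.9% on the untreated arrays and 22.5% to 42.1% on the LPS arrays. The dimmest signal that still counted as above background was 5.08% to 10.03% of reference on the untreated arrays, against 0.292% to 0.642% on the probiotic, 0.743% to 1.93% on the day 0 and 0.279% to 1.74% on the LPS arrays. A subunit at 4% of reference could therefore be seen on a probiotic array and not on an untreated one. Replicate 4 stood apart in 3 groups: its reference signal was 776 scanner units on day 0 against 2566 to 3020.0 on the other arrays, 7109 against 10749 to 11895 in the probiotic group and 1796 against 9777 to 11185 in the LPS group. Results are given with and without these 3 arrays.

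Subunit transcripts were among the brighter probes of the blood arrays on day 0, in the probiotic group and with LPS, and close to the middle of the range in the untreated group. Of the 204 probes, 103, 91, 87 and 55 were above background on the 4 day 0 arrays, 130, 124, 126 and 90 on the probiotic arrays, 30, 49, 53 and 38 on the untreated arrays, and 121, 124, 134 and 99 on the LPS arrays. Every untreated array was below every array of the other groups. The mean share above background was 57.6 ± 9.07% (SD, n = 4) in the probiotic and 20.8 ± 5.13% in the untreated group, against 32.8% and 15.0% of all probes. It was 41.2 ± 10.05% on day 0 and 58.6 ± 7.23% with LPS, against 17.9% and 34.2% of all probes.

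The median subunit probe stood at percentile 80.9 ± 9.01 among all probes of a probiotic array, 74.8 ± 2.01 on day 0, 81.1 ± 3.84 with LPS and 57.2 ± 3.26 in the untreated group. This rank within an array needs no scaling between arrays. The ranges were 67.4 to 85.5 in the probiotic group and 52.4 to 59.9 in the untreated group, which did not overlap. By complex, complex III was seen most often, with 70.8% of its probes above background on the average probiotic array and 26.0% on the average untreated array. Complex I stood at 60.3% and 17.5%, complex V at 57.8% and 21.4%, complex IV at 50% and 25.6%, and complex II at 45% and 15%. Neither probe of CYCS, the mobile electron carrier between complexes III and IV, was above background on a day 0, probiotic or LPS array, and 1 of them was so on a single untreated array, at 28.2% of reference.

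**Figure D1:**
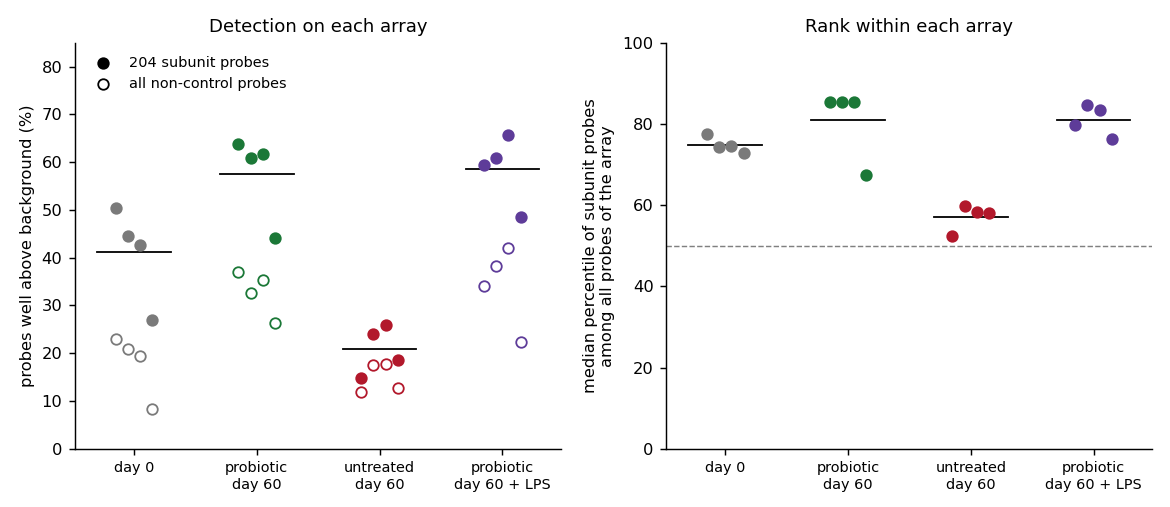
Left, percent of probes well above background on each of the 16 arrays, as filled points for the 204 subunit probes and open points for all non-control probes; right, median percentile of the subunit probes among all probes of the same array. Lines are group means over 4 arrays; the untreated arrays lie lowest for the subunits in both panels, and probiotic replicate 4 lies below its group at percentile 67.4.

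For the comparisons between groups a probe was kept when it was above background on all 4 arrays of at least 1 group. That left 108 of the 204 probes and 66 of the 84 genes: 44 probes of complex I, 3 of II, 16 of III, 20 of IV and 25 of V. The 18 genes with no probe kept were ATP5D, ATP5G3, ATP5H, ATP5S, COX4I2, COX5A, COX7B2, CYCS, NDUFA1, NDUFB1, NDUFB2, NDUFB5, NDUFB8, NDUFC2, NDUFS4, NDUFS5, NDUFS6 and SDHA. Most kept probes entered through the brighter groups: 87 were above background on all 4 probiotic arrays, 76 on all LPS arrays, 49 on all day 0 arrays and 14 on all untreated arrays. A count of kept probes that were lower in the untreated group is therefore in part set by the filter. Only 6 genes had a probe above background on all 16 arrays: UQCR10, UQCR11, NDUFA5, NDUFB11, NDUFA13 and COX6B1. A probe was called changed at a Benjamini-Hochberg adjusted p under 0.05 over 12214 probes (limma, 1 fit of all 16 arrays, two-sided) and a fold of at least 2, on log2 signals floored at 0.825% of reference. Where a probe was not above background on any array of 1 group, its fold is a bound, "at least", set by the dimmest signal that could be seen there. Signals of the brighter group that lay below the floor entered at the floor. The bound is not strict in such cases, as for COX7A2 and COX7A2L with probiotic replicate 4. Where every array of a group lay below the floor, as for UQCRFS1 probe A_73_P036286 on untreated and COX6A2 on probiotic arrays, the floored values had no spread. The p-value there rests in part on the floor. That floor lay below the 5.08% to 10.03% of reference needed to be seen on untreated arrays.

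The first comparison asks how blood of cows given probiotics differed from that of untreated cows at day 60. From the scanner signal, 59 of the 108 subunit probes rose in the probiotic group and 15 fell, which is 54.6% and 13.9%, against 32.9% and 28.5% of all 12214 probes tested. With cyclic loess scaling the split was 44 up and 22 down. The median difference was 2.48 on the log2 scale for the subunits and 0.27 for all probes. It did not hold in the authors' deposited table of group averages, where 3 of the same 108 probes were up and 21 down at 2-fold and the median was -0.10. It was also 0.019 over all 204 probes, kept or not, where most probes were dim in both groups.

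The signals of 44 of the 59 higher probes did not overlap between the groups, and 41 of the 59 were above background on no untreated array. The same shares over all probes are not given here, so these counts stand without a background. Among the 10 subunit probes above background on all arrays of both groups, 2 rose and 3 fell, with a median of -0.33. The same restriction turned the picture for all probes as well: of 1826, 6.79% rose and 73.7% fell, with a median of -3.02. The subunit median lay above that of all probes in both sets, while its sign differed between them. The first set is in part fixed by the filter and the second holds only 10 subunit probes. No difference between subunits and all probes was tested. Without the 3 arrays numbered 4 that stood apart, 61 subunit probes rose and 15 fell, with a median of 2.59.

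In complex I, the NADH dehydrogenase that feeds the chain, 23 of 44 kept probes rose and 4 fell, with a median difference of 2.12 (log2). NDUFV2, an iron-sulfur subunit next to the NADH site, read 107, 110.0, 110.0 and 153% of reference on the probiotic arrays and -1.95, 0.850, 0.184 and 0.414% on the untreated arrays. The groups did not overlap, and no untreated array was above background. The probiotic signal was at least 17.6-fold higher (adjusted p = 2.7e-11, limma).

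NDUFA12, an accessory subunit, read 32.2, 35.4, 34.3 and 46.6% of reference in the probiotic group and -0.204, 0.835, -0.261 and -1.05% in the untreated group, at least 5.46-fold (adjusted p = 2.95e-09). NDUFA6, another accessory subunit, read 68.5, 78.0, 73.2 and 105% against 2.60, -1.30 and 2.09%, with 1 untreated spot left out as an outlier, at least 13.6-fold (adjusted p = 2.41e-05). Neither gene's signals overlapped between the groups.

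Other complex I subunits kept a clear signal in the untreated group. NDUFA13, also known as the cell death protein GRIM-19, read 129, 134, 131 and 163% of reference in the probiotic group and 70.0, 78.0, 80.5 and 66.8% in the untreated group. The groups did not overlap, but the difference of 0.91 ± 0.20 (log2, SE; adjusted p = 0.00116) was under 2-fold and not called, and with cyclic loess scaling it was -1.91. For NDUFA5 the difference was 0.43 (adjusted p = 0.269), and NDUFB11 rose by 1.72 (adjusted p = 0.00942). The NDUFB11 call was lost with cyclic loess scaling, where the difference was -0.68, and in the authors' deposited table the difference was -0.34. The call was also lost with the software's detrended signal (adjusted p = 0.0899, limma). Detrending touched no probiotic or untreated array, but that fit also holds the day 0 and LPS arrays.

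Against the direction of the complex, 4 probes fell. NDUFA3, an accessory membrane subunit, read 6.96, 4.42, 24.5 and 6.22% of reference in the probiotic group and 188, 196, 205 and 358% in the untreated group, a difference of -4.79 ± 1.05 (adjusted p = 0.00118). NDUFA11, an assembly and membrane-arm subunit, read 0.483, 0.251, 0.265 and 0.360% against 5.28, 8.89, 12.4 and 3.30%, a difference of -3.01 ± 0.65 (adjusted p = 0.00109). Both pairs of groups lay apart on every array.

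NDUFA4L2, the hypoxia-linked relative of NDUFA4, read 0.0854, 0.0645, 0.105 and 0.250% of reference in the probiotic group and 6.68, 8.29, 18.3 and -1.46% in the untreated group. It was not above background on any probiotic array, and 3 of the 4 untreated arrays were higher. The fitted difference was -2.70 (log2, adjusted p = 0.00933, limma), with untreated replicate 4 raised to the floor. NDUFS7, a core iron-sulfur subunit, fell by 3.38 on one probe (adjusted p = 6.24e-05). In the authors' deposited table NDUFA11 and NDUFA4L2 differed by 0.10 and 0.22 (log2), with the opposite sign.

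Complex II, succinate dehydrogenase, also works in the tricarboxylic acid cycle. Only 3 of its 10 probes were kept, and each behaved differently. SDHB read 23.6, 23.0, 24.3 and 33.1% of reference in the probiotic group and 0.140, -0.482, -0.898 and 26.9% in the untreated group, a rise of 3.71 ± 1.20 (adjusted p = 0.0147). The groups overlapped through untreated replicate 4 alone, and without that array the rise was 4.96 (adjusted p = 0.000626). In the authors' deposited table SDHB differed by -0.76.

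SDHD, a membrane anchor of the enzyme, went the other way. It read 1.45, 1.24, 1.54 and 3.83% of reference in the probiotic group and 25.4, 22.6, 25.5 and 20.6% in the untreated group, without overlap, a difference of -3.70 ± 0.46 (adjusted p = 8.39e-06); in the authors' deposited table it was 0.25. SDHC, the other anchor, read 5.12, 4.19, 5.14 and 1.56% against 3.43, -0.352, -0.146 and 2.31%, and its difference of 1.25 was not called (adjusted p = 0.0566). No probe of the catalytic subunit SDHA was kept.

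In complex III, the cytochrome bc1 complex, 8 of 16 kept probes rose and 2 fell, with a median difference of 1.86 (log2). With the brightest probe of each gene, 3 of 9 rose and 1 fell, and the median was 0.30. UQCRFS1, the Rieske iron-sulfur protein, read 51.8, 53.5, 56.1 and 73.6% of reference in the probiotic group and -1.39, -1.34, -0.165 and -0.133% in the untreated group on probe A_73_P036286. The probiotic signal was at least 8.65-fold higher (adjusted p = 6.09e-11), while in the authors' deposited table it differed by -0.043. Of the gene's 3 kept probes A_73_P213297 also rose, while the brightest, A_73_116101, was not called. UQCRB, a small structural subunit, read 34.1, 37.9, 37.6 and 53.9% against -1.23, 1.42, -1.39 and -2.65% on its brightest probe, at least 5.98-fold (adjusted p = 3.93e-10). On the probes whose values are given, neither gene overlapped between the groups.

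CYC1, the cytochrome c1 subunit, was dimmer but not lost in the untreated group. It read 107, 113, 115 and 168% of reference in the probiotic group and 2.84, 14.0, 9.81 and 23.7% in the untreated group, a rise of 3.65 ± 0.53 (adjusted p = 3.3e-05) that with cyclic loess scaling was 1.07 and not called (adjusted p = 0.187). These values are of probe A_73_P048881. Another CYC1 probe, A_73_101697, shares a run of 51 bases with it and was above background on no probiotic array. UQCRH, the hinge protein that helps cytochrome c1 and c meet, read 199, 218, 214 and 305% against -0.355, 12.2, 5.41 and 1021%.

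The UQCRH rise of 3.91 ± 1.44 (adjusted p = 0.0282) rested on single arrays: it was 5.93 without untreated replicate 4 (adjusted p = 4.16e-06), and it lost its call without untreated replicates 1, 2 or 3 or probiotic replicates 2, 3 or 4 (adjusted p from 0.0504 to 0.0990). UQCRQ, a ubiquinone-binding subunit, was lower in the probiotic group, at 1.61, 1.45, 1.47 and 0.144% of reference against 12.8, 10.98, 7.64 and -2.70%, a difference of -2.07 (adjusted p = 0.0438). That call too was lost when any array other than untreated replicate 4 was left out. UQCR10 and UQCR11, above background on all 16 arrays, differed by -0.95 (adjusted p = 0.112) and 0.17 (adjusted p = 0.786).

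In complex IV, cytochrome c oxidase, 12 of 20 kept probes rose and 4 fell, with a median difference of 3.03 (log2). COX4I1, the common form of subunit 4, read 315, 332, 329 and 487% of reference in the probiotic group and 2.00, 0.880, 0.641 and 121% in the untreated group, a rise of 6.63 ± 1.42 (adjusted p = 0.00101). Untreated replicate 4 was the one array with a clear signal, and without it the rise was 8.31 (adjusted p = 1.16e-05). Replicate 4 of the LPS group read 10.09% where the other 3 read 343, 310.0 and 303%.

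COX6A1, the widely expressed form of subunit 6a, read 75.7, 81.4, 81.7 and 112% of reference in the probiotic group and 0.210, 1.66, -0.552 and 2.30% in the untreated group, at least 12.9-fold higher (adjusted p = 8.2e-06). COX6B1, the general form of subunit 6b, was above background on every array and read 128, 146, 155 and 213% against 22.6, 16.96, 17.7 and 18.5%. Its rise of 3.06 ± 0.46 (adjusted p = 4.88e-05) therefore rests on signals above background in both groups on this probe, A_73_P091291. With cyclic loess scaling the rise was 0.40 and not called (adjusted p = 0.308). Another COX6B1 probe, A_73_P037361, shares a run of 54 bases with A_73_P091291 and was above background on no probiotic array. COX7A2, the liver form of subunit 7a, read 29.7, 28.0, 32.1 and 0.216% against 0.985, -0.988, 1.18 and -0.428%, at least 1.81-fold higher (adjusted p = 0.0075). Probiotic replicate 4 was at the untreated level, and without it the fitted log2 difference went from 3.69 to 4.98 (adjusted p = 6.18e-05). Another COX7A2 probe, A_73_P080931, shares a run of 55 bases with this one, A_73_121292, and was above background on no probiotic array.

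Tissue-restricted forms were counted apart. Of 14 probes of COX4I2, COX6A2, COX6B2, COX7A1, COX7B2, COX8B and NDUFA4L2, 6 were kept, of which 1 rose and 5 fell, among them 2 probes of COX6B2. No difference between these and the common forms was tested. COX6B2, the form of subunit 6b known from testis, read 0.0452, 1.35, 0.00745 and 0.0191% of reference in the probiotic group and 164, 336, 141 and 199% in the untreated group, a difference of -7.73 ± 1.11 (adjusted p = 3.28e-05). COX6A2, the heart and muscle form of subunit 6a, read 0.601, 0.640, 0.622 and 0.624% against 6.77, 11.9, 16.2 and 17.1%, a difference of -3.89 ± 0.47 (adjusted p = 6.11e-06). Neither pair of groups overlapped.

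COX8B, a muscle form of subunit 8, read 4.60, 5.00, 5.22 and 6.01% of reference against 16.3, 19.3, 9.93 and 9.82%, a difference of -1.35 (adjusted p = 0.00455) that turned to 0.50 and 0.23 when arrays were scaled on the 75th percentile or the median of all probes. COX7A1, the muscle form of subunit 7a, was the one that rose, at 7.39, 7.99, 7.89 and 11.8% against 2.16, 0.0294, 0.142 and 0.908%, at least 1.28-fold higher (adjusted p = 9.04e-05). COX4I2 and COX7B2 were near background, with no array above it in the untreated group. In the authors' deposited table COX6B2 differed by 0.57 and COX7A2 by -1.06, both with the opposite sign.

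Markers of skeletal and heart muscle were measured beside these isoforms. Of 28 probes of 7 muscle genes, 20 were above background on no untreated array and 23 on no probiotic array, and 1 was kept, which fell. Their summed signal was 69.0% to 133% of reference on the untreated arrays and 4.59% to 10.05% on the probiotic arrays, while the summed isoform signal was 214% to 445% and 14.9% to 21.1%. Both sums take in the positive signal of every probe, above background or not. The dimmest signal that could be seen was 5.08% to 10.03% of reference on untreated arrays and 0.292% to 0.642% on probiotic arrays. The part of such dim signals in the sums, and of the muscle genes in the isoform result, was not tested.

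Complex V, ATP synthase, had the highest median difference of the 5 complexes, 4.03 (log2), with 15 of 25 kept probes up and 4 down; that order was not tested. ATP5A1, the alpha subunit, read 169.8, 189, 186 and 244% of reference in the probiotic group and 0.980, 2.71, 4.67 and 1.20% in the untreated group on its brightest probe, at least 29.0-fold (adjusted p = 5.17e-09). Its probe A_73_P259462 read 82.9, 86.3, 84.4 and 114% against 0.636, 1.32, 0.794 and 1.18%, at least 13.6-fold (adjusted p = 4.89e-11). ATP5J, the coupling factor 6 subunit of the stalk, read 55.2, 59.8, 61.0 and 82.9% against -1.53, -0.149, -2.24 and -1.01%, at least 9.51-fold (adjusted p = 6.47e-11). No array of one group reached the other group in any of the 3.

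ATP5L, the membrane subunit g, kept some signal in the untreated group. It read 238, 264, 268 and 276% of reference in the probiotic group and 10.13, 44.0, 5.09 and 19.8% in the untreated group, a rise of 4.16 ± 0.71 (adjusted p = 0.000145) that with cyclic loess scaling was 1.37 and not called (adjusted p = 0.0535). ATP5SL, the assembly-related gene, was lower in the probiotic group, at 1.99, 0.684, 1.12 and 0.657% against 4.04, 9.16, 11.1 and 18.9%, a difference of -3.08 (adjusted p = 3.24e-05). ATP5I, the membrane subunit e, did not differ in a called way on its brightest probe, with 40.3, 38.2, 44.6 and 0.433% against 27.0, 10.5, 13.0 and 13.8%. Its probe A_73_P409556 was lower, at 0.0319, 0.0288, 0.0336 and -0.0210% in the probiotic group, dim on every array, against 25.5, 20.2, 17.9 and 13.0%, at least 46.3-fold (adjusted p = 0.000451). A_73_P409556 shares a run of 47 bases with the brightest ATP5I probe, A_73_P288641, yet the 2 probes read unlike on the same probiotic arrays.

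**Figure D2:**
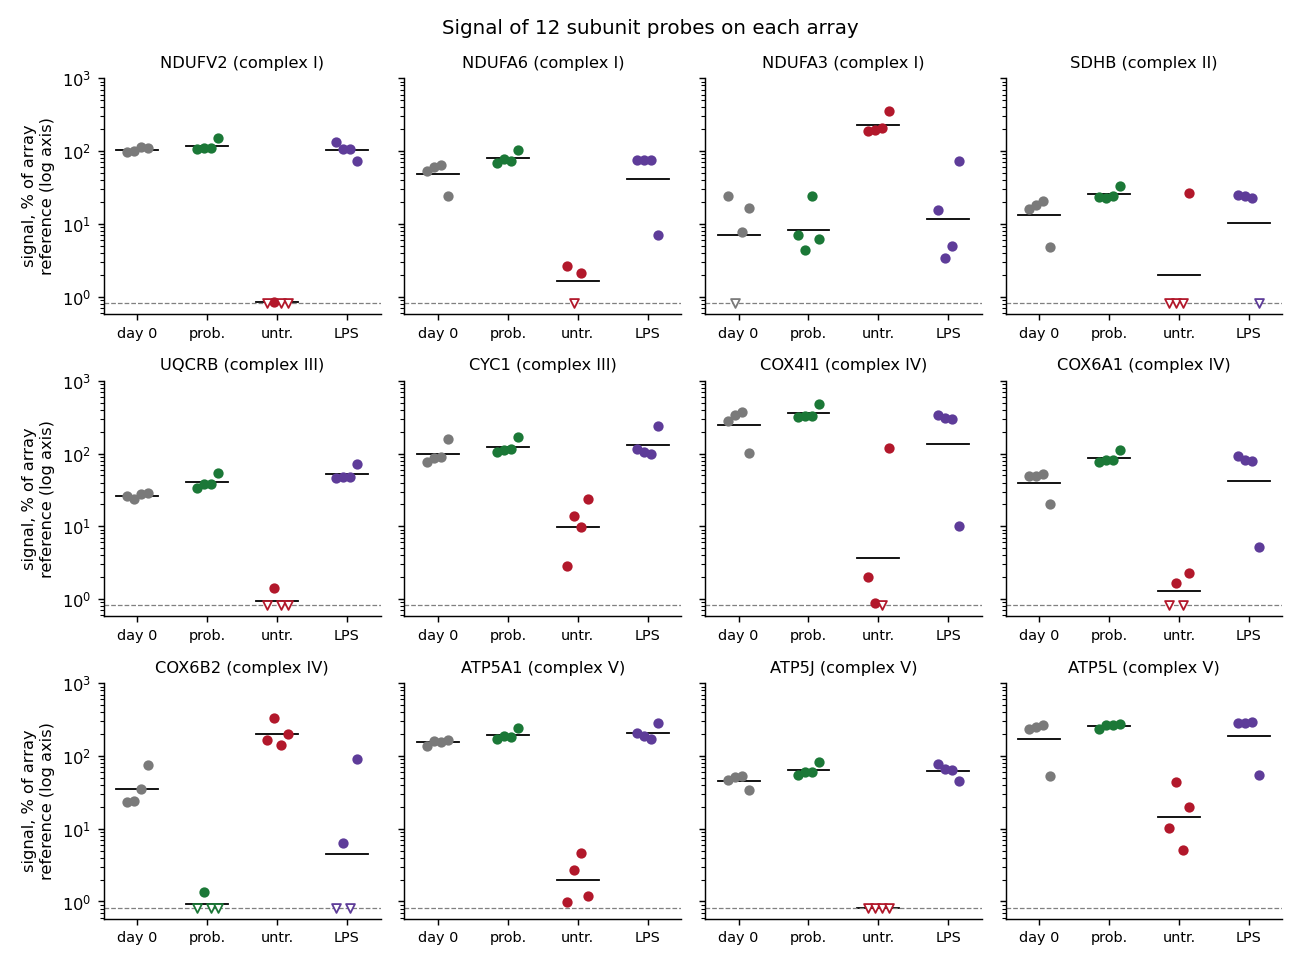
Signal of 12 subunit probes on each array as percent of the array's reference signal, on a log axis. Points are arrays in order 1 to 4 within a group, open triangles are signals at or below the floor of 0.825% (dashed line), and black lines are group means on the log2 scale; the untreated arrays lie low for 10 of the probes and high for NDUFA3 and COX6B2, and single arrays depart from their group for SDHB and COX4I1.

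Where on the array a probe lay went with the result. Of the 108 probes, 30 lay in the middle band of the array's spot lines (the central one of 3 equal bands), where 10 rose and 7 fell; of the 78 in the outer bands, 49 rose and 8 fell. Over all probes the same split was 15.8% up and 54.0% down in the middle and 37.7% up and 21.4% down in the outer bands. The median percentile of the subunit probes in the outer bands alone was 83.3 ± 1.43 in the probiotic group and 56.8 ± 7.06 in the untreated group. In the middle band it was 79.0 ± 13.5 and 60.0 ± 4.70, with ranges of 58.8 to 86.1 and 55.8 to 66.7 that overlapped. The part of array position in the result was not tested.

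**Figure D3:**
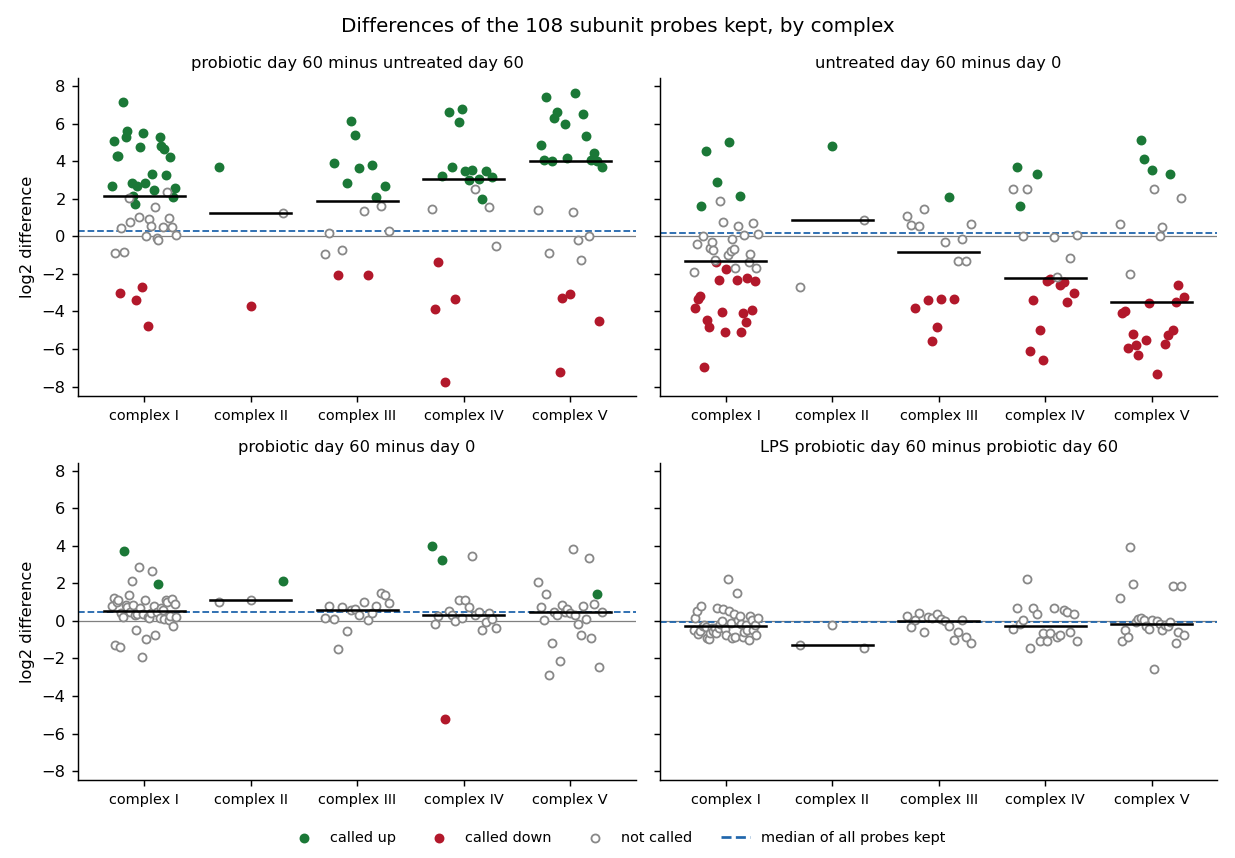
Log2 differences of the 108 kept subunit probes in each of the 4 comparisons, by complex. Filled points were called up or down (limma, adjusted p under 0.05 and at least 2-fold), open points were not, black bars are the median of a complex and the dashed line is the median of all 12214 probes; 59 points are called up and 15 down for probiotic minus untreated, and none for LPS minus probiotic.

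The authors' deposited table gives 1 log2 value per probe and group, and its differences did not follow the scanner signal for this comparison. Of the 59 probes that rose in the scanner signal, 30 were above 0 in the authors' deposited table, 2 were up 2-fold or more and 9 down. Of the 15 that fell, 10 were below 0 in the authors' deposited table, 3 were down 2-fold or more and none was up. For NDUFA6 the difference in the authors' deposited table was -1.57, for CYC1 -0.70, for UQCRB -0.060 and for UQCRH -1.80, each against a rise in the scanner signal. The centring of that table is not given in the sources used here.

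**Figure D4:**
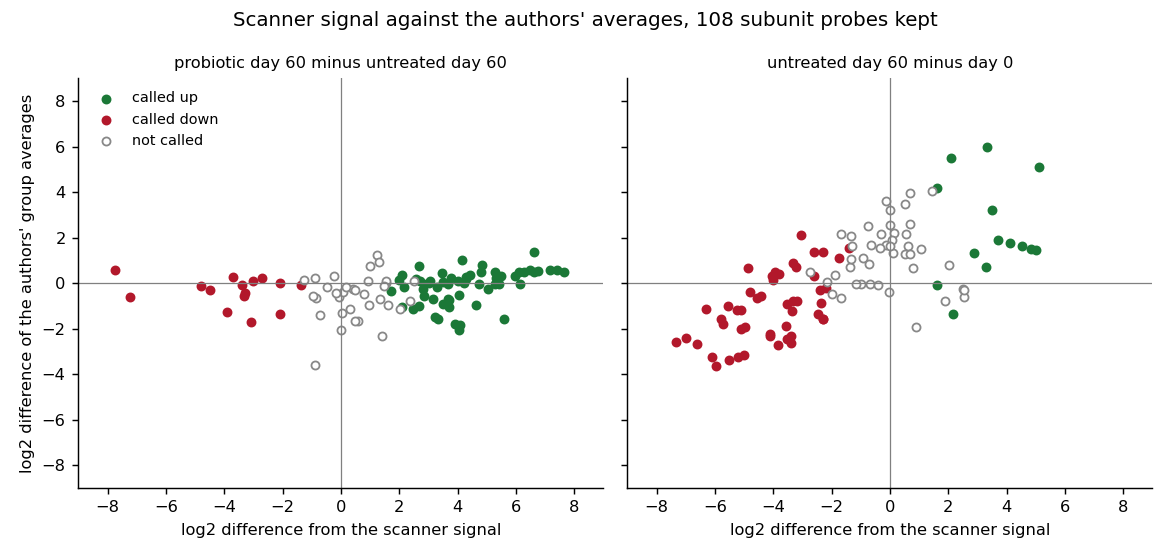
Log2 difference from the scanner signal (horizontal) against the difference of the authors' deposited group averages (vertical) for the 108 kept subunit probes, for probiotic minus untreated (left) and untreated minus day 0 (right). On the left 24 of 108 of the authors' values lie past 2-fold, 3 up and 21 down, and their median is -0.10. On the right 36 of the 49 probes that fell lie below 0 on both axes.

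Probes of the same gene did not always give the same answer. Of the 84 symbols, 67 had at least 2 probes, and in 27 of these 1 probe was above background on all 4 probiotic arrays while another was so on none. Of the same 67, in 6 every probe was above background on all 4 probiotic arrays and in 4 every probe was so on none. Of 204 pairs of probes of a gene, 35 shared a run of at least 20 bases and so overlap in sequence. The median GC content was 45% for the 87 probes seen on all probiotic arrays and 40% for the 67 seen on none.

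ATP5B, the catalytic beta subunit of ATP synthase, showed the widest split. Probe A_73_109331 read 419, 443, 446 and 561% of reference in the probiotic group and 5.62, 2.60, 4.56 and 0.0705% in the untreated group, at least 69.0-fold higher (adjusted p = 9.8e-06). Probe A_73_P406256 read 11.4, 12.5, 12.7 and 18.2% against -0.740, -0.505, -0.491 and -1.68%, at least 2.00-fold higher (adjusted p = 9e-08). Probe A_73_P037681 read 0.103, 0.0980, 0.0931 and 0.181% against 65.8, 644, 89.5 and 63.7%, at least 309.7-fold lower (adjusted p = 5.06e-06). A_73_109331 and A_73_P406256 were dim on every untreated array and A_73_P037681 on every probiotic array. The 2 printed ATP5B probes, A_73_P406256 and A_73_P037681, shared no run longer than 5 bases and had a GC content of 45% and 43.3%. Probes that overlap in sequence also differed: A_73_P474133 shares a run of 39 bases with A_73_109331 and was above background on no probiotic array.

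ATP5G2 and UQCRB also had probes called in opposite directions. ATP5G2, a form of the membrane ring subunit c, rose by 4.84 on probe A_73_108238 (adjusted p = 9.96e-05) and fell by 3.28 on A_73_P048646 (adjusted p = 2.46e-06). The second UQCRB probe, A_73_P154247, read 1.51, 1.68, 1.55 and 1.93% of reference in the probiotic group and 7.03, 5.81, 6.42 and 9.31% in the untreated group, a difference of -2.08 (adjusted p = 9.38e-05). ATP5A1 had 4 probes called up and none down.

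**Figure D5:**
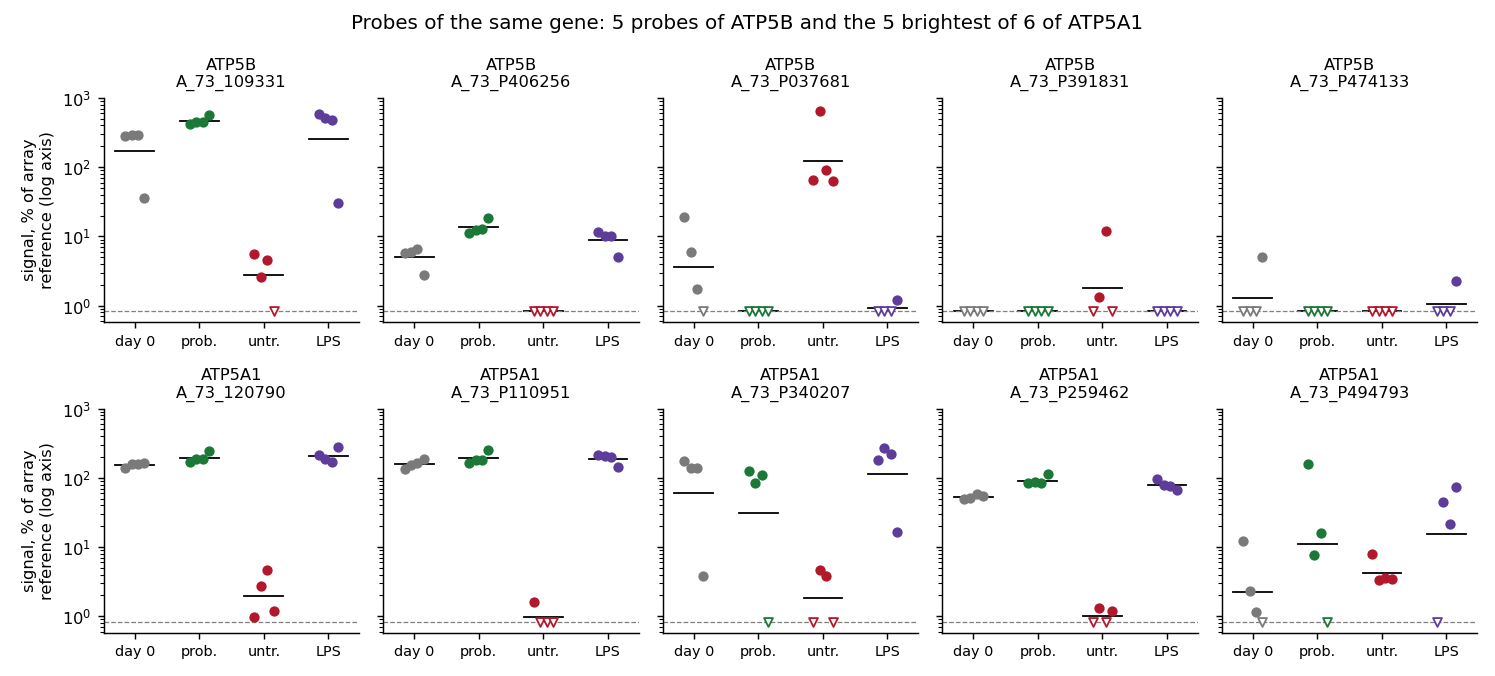
Signal of the 5 ATP5B probes (top) and the 5 brightest of 6 ATP5A1 probes (bottom) on each array, as percent of the array's reference signal on a log axis, with group means as lines and open triangles at the floor of 0.825%. ATP5B probes A_73_109331 and A_73_P406256 are low on the untreated arrays, while A_73_P037681 is high there at 63.7% to 644%.

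The untreated group was also compared with day 0, which shares the untreated arrays with the comparison above, so its values are given for themselves. Of the 108 probes 14 rose and 49 fell in the untreated group at day 60, which is 13.0% and 45.4%, against 29.3% and 22.2% of all 12214 probes; scaled on the 75th percentile of all probes the split was 7 up and 64 down. The median difference was -1.53 (log2) for the subunits and 0.16 for all probes, and in the authors' deposited table it was 0.34, with 42 probes up and 29 down. Of the 49 probes that fell, 35 did not overlap between the groups and 35 were dim on every untreated array, again with no share over all probes beside them. Of the 49, 36 were also below 0 in the authors' deposited table, and of the 14 that rose, 12 were above 0 there. Without the 3 arrays numbered 4 that stood apart, 17 rose and 54 fell, with a median of -1.95.

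By complex, 5 probes rose and 18 fell in complex I, 1 rose and none fell in complex II, 1 rose and 6 fell in complex III, 3 rose and 10 fell in complex IV, and 4 rose and 15 fell in complex V. With the brightest probe of each gene, none of 9 rose and 3 fell in complex III, and its median was 0.55 against -0.83 over its 16 probes. NDUFV2 read 98.3, 98.8, 113 and 109.6% of reference on day 0, so that its untreated signal, given above, was at least 15.6-fold lower (adjusted p = 5.16e-11). ATP5A1 read 139, 160.0, 158 and 165% on day 0, at least 23.1-fold above the untreated group. COX6B1 read 124, 127, 136 and 81.2% on day 0, and fell by 2.61 in the untreated group, a call lost with cyclic loess scaling (-0.24) and the detrended signal (-0.85); in the authors' deposited table it differed by 0.32. CYC1 read 77.6, 86.3, 90.1 and 156% on day 0 and fell by 3.33 (0.90 in the authors' deposited table), and was not called with those 2 settings either, at -1.07 and -0.27. All 4 day 0 arrays lay above all 4 untreated arrays in each of these genes.

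Among those that rose, SDHD read 0.524, 0.108, -0.398 and 0.366% of reference on day 0, so that the untreated signal was at least 22.4-fold higher (adjusted p = 6.28e-07). NDUFA3 read 24.2, 0.323, 7.82 and 16.4% on day 0, a rise of 5.00 in the untreated group. COX6A2 read 0.694, 0.897, 0.805 and 1.26% on day 0, below every untreated array, at least 11.2-fold (adjusted p = 1.04e-05). Probes of the same gene went apart here in NDUFA6 and NDUFS7 as well as in ATP5B, ATP5G2 and UQCRB: NDUFS7 rose by 2.89 on one probe and fell by 2.31 on another. NDUFA11 rose by 1.62 (adjusted p = 0.0497), a call that was lost without any array of either group but replicate 4 of each, and its difference was -0.43 with the 75th percentile of all probes, -0.35 with quantile normalization and -1.23 with the detrended signal.

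Probiotic blood at day 60 and day 0 blood were much closer to each other for the subunits. Of the 108 probes 6 rose and 1 fell, which is 5.56% and 0.926%, against 6.21% and 1.08% of all probes, so the share called was near the background. With other scalings the split was 2 up and 2 down (75th percentile of all probes), 11 up and 4 down (median of all probes), 2 up and 1 down (quantile) and 3 up and 4 down (cyclic loess). The median difference was 0.46 (log2) for the subunits and 0.48 for all probes. By name, those that rose were probes of NDUFA6, NDUFA7, SDHC, COX7A2L, COX8A and ATP5B, and the one that fell was COX6B2. At 2-fold, 30 of the 108 were up and 29 down in the authors' deposited table, with a median of 0.03.

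NDUFA6 probe A_73_P116331 read 0.641, 0.110, 0.361 and 1.75% of reference on day 0 and 4.31, 4.49, 4.37 and 2.50% in the probiotic group, at least 3.65-fold higher (adjusted p = 0.00591, the lowest of the 108). With the detrended signal its difference was -2.77, and in the authors' deposited table -1.06. ATP5B probe A_73_P406256 read 5.68, 6.02, 6.50 and 2.80% on day 0, and rose by 1.43 in the probiotic group (adjusted p = 0.0174). Both lay apart from day 0 on every array. COX6B2 read 23.2, 23.97, 35.7 and 74.8% on day 0, a difference of -5.23 in the probiotic group (adjusted p = 0.014) and of 0.32 in the authors' deposited table.

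The other 4 rested on dim day 0 signals and on the 3 probiotic arrays other than replicate 4. NDUFA7, an accessory subunit, read 0.403, 0.242, 0.220 and -3.50% of reference on day 0 and 21.8, 19.7, 34.3 and 0.907% in the probiotic group (at least 10.3-fold, adjusted p = 0.0412). COX8A probe A_73_107151, of the common form of subunit 8, read 0.366, 0.0649, 0.290 and 0.706% against 51.1, 22.1, 30.0 and 0.873% (at least 12.6-fold, adjusted p = 0.0456, limma). A second COX8A probe, A_73_P061491, shares a run of 59 bases with A_73_107151. That second probe was not called in this comparison, and it fell in untreated against day 0 blood. COX7A2L probe A_73_111089 read 17.2, 14.6, 16.9 and -0.0653% in the probiotic group, at least 7.37-fold above day 0 (adjusted p = 0.0383, limma). SDHC read -0.571, -0.391, 0.0777 and 0.0982% on day 0, and the probiotic group was at least 3.47-fold higher (adjusted p = 0.0293).

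These calls were not stable. The SDHC and NDUFA7 calls were lost when any array other than probiotic replicate 4 was left out. Without probiotic replicate 4 the NDUFA7 difference was 4.89 (log2, adjusted p = 0.00124). With the software's detrended signal the NDUFA7, SDHC and COX8A differences were -0.39, -2.35 and -0.33. In this comparison only day 0 replicates 2, 3 and 4 had been detrended, and the probiotic arrays had not. The number called ran from 3 to 12 when 1 array was left out; it was 12, with 11 up and 1 down, without probiotic replicate 4, and 3 without day 0 replicate 1, 2 or 4 or probiotic replicate 1, 2 or 3. Without the 3 arrays numbered 4, 11 rose and 2 fell.

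LPS was compared with the probiotic group on the same scan day, to ask how 30 min with LPS changed probiotic blood. None of the 108 probes was called by limma in either direction, against 0.467% up and 0.0409% down of all probes; 3 were under an unadjusted p of 0.05, 2 higher and 1 lower. The median difference was -0.25 (log2) for the subunits and -0.07 for all probes, and 0.06 for the subunits without the replicates numbered 4. In the authors' deposited table it was -1.36, with 8 probes up and 71 down at 2-fold. Of the 108 probes 106 overlapped between the groups, with no count over all probes beside it.

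The 2 that did not overlap were dim on every probiotic array. ATP5I probe A_73_109497 read 3.69, 35.5, 16.6 and 12.02% of reference with LPS and -0.0750, -0.0523, -0.0460 and -0.0680% without (adjusted p = 0.133). This probe shares a run of 43 bases with A_73_P288641, which was bright on the probiotic arrays other than replicate 4. NDUFA10 read 1.28, 3.51, 13.3 and 3.92% with LPS and -0.0287, 0.351, 0.0874 and 0.0564% without (adjusted p = 0.163). Both were named because they did not overlap, after their values were seen, and neither was called. In NDUFV2 the LPS arrays read 133, 108, 107 and 72.7%, around the probiotic values. LPS replicate 4 was far below its group in NDUFA6, at 6.96% against 74.5, 74.4 and 74.5%, and in ATP5B probe A_73_109331, at 30.7% against 593, 515 and 480.1%.

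Genes that build or work beside the complexes were counted from lists, by probes kept. Over all 12214 probes, 32.9% rose and 28.5% fell in probiotic against untreated blood. The shares were 29.3% and 22.2% in untreated against day 0, and 6.21% and 1.08% in probiotic against day 0. The subunits encoded by mitochondrial DNA, the core of complexes I, III, IV and V, had 17 of 26 probes kept, of which 9 rose and 3 fell in probiotic against untreated blood, with a median of 2.98 (log2); 1 rose and 8 fell in untreated against day 0. Their summed signal was 8273% to 9604% of reference on the probiotic arrays and 923% to 3479% on the untreated arrays. ATP6, the proton channel subunit of ATP synthase, read 1542, 1658, 1643 and 2393% in the probiotic group, 34.4, 30.1, 21.7 and 36.3% in the untreated group and 2062, 2239.9, 2512 and 1747% on day 0. It was above background on every array, and the rise of 5.89 ± 0.42 against untreated (adjusted p = 2.59e-08) rests on measured signals.

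COX3, a core subunit of complex IV, again had probes in both directions, with 5.97 (adjusted p = 0.00341) on its brightest and -5.03 on another. ND4, a proton-pumping subunit of complex I, read 171, 184, 178 and 226% of reference in the probiotic group and 83.2, 47.7, 129.5 and 271% in the untreated group, which overlapped, and was not called (0.79, adjusted p = 0.303). ND1, another membrane subunit of complex I, was called up in the probiotic group against day 0, at least 31.2-fold (adjusted p = 0.0415). The other mitochondrial probes were not called in that comparison.

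Assembly factors were mostly dim. In probiotic against untreated blood 1 of 7 kept probes of complex I assembly rose and 2 fell (ACAD9 by -3.46, ECSIT by -2.75), 1 of 2 of complex II assembly rose and 1 fell (SDHAF2 by 4.27, SDHAF1 by -4.22), 3 of 3 of complex III assembly rose (probes of UQCC3 and TTC19), 5 of 10 of complex IV assembly rose and none fell, and 1 of 2 of the complex V list fell. COX17, the copper chaperone of complex IV, read 46.6, 50.3, 49.5 and 67.9% of reference in the probiotic group and -0.979, 0.218, -0.335 and 0.323% in the untreated group, at least 7.87-fold (adjusted p = 8.68e-07). UQCC3, which helps cytochrome b into complex III, was at least 3.77-fold higher. SCO1, another copper-delivery protein, was at least 2.83-fold higher. TMEM70, an ATP synthase assembly factor, was at least 69.1-fold lower (adjusted p = 1.54e-05).

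Of regulators of mitochondrial biogenesis, 4 of 7 kept probes rose and 1 fell. ESRRA, the estrogen-related receptor alpha that acts on respiratory genes, was at least 6.40-fold higher in the probiotic group (adjusted p = 2.97e-09), and TFB1M, which modifies mitochondrial ribosomal RNA, at least 2.33-fold (adjusted p = 1.73e-05). Among enzymes of the tricarboxylic acid cycle 8 of 13 kept probes rose and 1 fell, with SUCLG2 at 4.12 (log2). Among glycolytic enzymes 11 of 24 rose and 1 fell, and 4 rose against day 0. LDHB, which turns lactate back to pyruvate, read 147, 172, 171 and 236% of reference in the probiotic group and -1.30, 2.33, -0.840 and -0.0568% in the untreated group, at least 26.6-fold. The other 12 glycolytic probes were not called, and no difference between these lists and the subunits was tested.

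Blood cell markers were read on the same arrays. Their counts stand beside 32.9% up and 28.5% down over all probes, and several lie near those shares. T cell genes had 8 of 11 kept probes up and 2 down in probiotic against untreated blood, with summed signals of 453% to 633% and 49.3% to 136% of reference. Neutrophil genes had 5 of 9 up and 3 down (796% to 912% and 131% to 528%), and monocyte genes 2 of 6 up and 1 down (206% to 316% and 26.4% to 68.7%). General leukocyte genes had 3 of 6 up and 1 down (309.6% to 324% and 168% to 1207%), B cell genes 3 of 6 up and 2 down (254% to 337% and 292% to 695%), and natural killer cell genes 1 of 3 up (111% to 163% and 39.9% to 92.7%).

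Erythroid genes had 2 of 5 up and 2 down (2097% to 2500.1% and 214% to 2612%), and platelet genes 1 of 2 up and 1 down (5.54% to 7.08% and 2.87% to 10.9%). The T cell, neutrophil, monocyte and natural killer cell sums did not overlap between the groups and were lower in the untreated group, as the subunits were. On day 0 the T cell and monocyte sums were 231% to 407% and 107% to 186%, and with LPS 295% to 559% and 43.4% to 226%. In whole blood fewer cells of a type and less RNA per cell cannot be told apart, and the part of cell composition in the subunit result was not tested.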

How the data were processed

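Per the file headers, the authors' scanner files hold background-subtracted spot intensity (Agilent Feature Extraction 10.10.1.1), with no normalization between arrays. By the same headers the processed signal of day 0 replicates 2, 3 and 4 and LPS replicate 4 was also detrended by the software, so the undetrended signal was used. That processed signal is the alternative named the detrended signal. Its ratio to the undetrended signal, for spots above background, was near 1 on every probiotic and untreated array. From the 5th to the 95th percentile the ratio ran from 0.674 to 858 on day 0 replicate 4 and from 0.145 to 16.3 on LPS replicate 4. The authors' deposited table of log2 group averages gave the gene symbols and served as an alternative. Spots marked as outliers (7 of 3264 subunit spots) and control spots were left out and no spot was saturated. Symbols were matched to RefSeq by accession (166 probes), symbol (35) or synonym (3). Signals were scaled, floored, taken as log2 and tested in a single linear model for the 4 groups (limma 3.58.1, moderated by eBayes, under R 4.3.3), with normexp as an alternative run on the median spot and background signals; errors after ± are SE for differences and SD for arrays. The precision is limited by 4 arrays per group. On simulated data for probiotic against untreated (12214 probes), 20, 37, 42 and 47 of 50 probes changed by 2, 3, 4 and 6 (log2) were recovered, with 10 false calls. The simulated noise was independent between probes and arrays, and the floor, filter and scaling were not redone. Few probes were changed there, while in the data 32.9% of all probes were called up and 28.5% down. These counts therefore do not carry over to the real comparison. A gene was named by its brightest probe unless another probe is stated. Named per complex were the 3 largest non-overlapping calls, the 2 brightest probiotic genes, calls against the majority, tissue-restricted isoforms and genes whose probes disagree, and from other lists the 2 largest calls; UQCRFS1, NDUFA5, NDUFB11, NDUFA10, COX7A2L, COX8A, an ATP5I probe and a few non-member genes were added after their values were seen. Some results are not reported here. The subunits, lists and tests were chosen with earlier results of these data known. Figures were drawn with matplotlib 3.10.9.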

Additional observations from a re-analysis of the deposited data

Results flagged for a closer look

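In 33 of 95 sets of 4 arrays, 1 array lay far from the other 3, by the gap to its nearest neighbour against the range; chance gives about 1 in 20. All but 1 were replicate 4 of day 0, probiotic or LPS. The values below are log2 of the signal relative to the array's reference, with the range of the other 3 arrays where it is given.

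On day 0 replicate 4, ATP5B stood at -1.46 (others 1.47 to 1.54), ATP5L at -0.89 (1.23 to 1.43), COX6A1 at -2.31 (-1.02 to -0.94), COX6B1 at -0.30 (0.32 to 0.44), SDHB at -4.38 (-2.63 to -2.30) and COX8B at -5.48 (-4.28 to -4.10). NDUFA11 stood higher than the others, at -4.30 (-6.09 to -5.84).

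On probiotic replicate 4, 90 subunit probes were above background (others 124 to 130) and the median percentile of the subunits was 67.4 (85.4 to 85.5). Bright subunits were higher there: COX4I1 at 2.29, CYC1 at 0.75, NDUFA13 at 0.70, NDUFV2 at 0.61, SDHB at -1.59 and COX7A1 at -3.08. Others were far lower or at the floor of -6.92: NDUFA7 at -6.79 (-2.34 to -1.54), SDHC at -6.00 (-4.58 to -4.28), UQCRQ at -6.92, COX7A2 at -6.92 (-1.84 to -1.64) and ATP5I at -6.92 (-1.39 to -1.17).

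On LPS replicate 4, 9 genes were lower than on the other LPS arrays: SDHB at -6.92, COX7A1 at -5.73, COX6A1 at -4.29, NDUFA6 at -3.84, COX4I1 at -3.31, NDUFA12 at -3.01, COX6B1 at -1.91, ATP5B at -1.70 (others 2.26 to 2.57) and ATP5L at -0.85 (1.49 to 1.55). UQCRB at -0.47, UQCRQ at -3.46 and COX8B at -3.69 were higher. On untreated replicate 4, NDUFA3 was higher, at 1.84 (0.91 to 1.04). The cause of these departures was not tested.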

How the results depend on the processing

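The results rest on a faint untreated slide: its probes had to reach 5.08% to 10.03% of reference to be seen, and 17 alternatives to the processing were tried besides leaving out single arrays. Of the 59 subunit probes that rose in probiotic against untreated blood, 23 held their call in every alternative with a test and 52 never turned; of the 15 that fell, 3 held and 14 never turned. For untreated against day 0, 15 of 49 lower and 1 of 14 higher probes held, and for probiotic against day 0 none of 7 did. The search for motifs in promoters was not run.

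The median subunit difference (log2) for probiotic minus untreated was 3.19 with the 75th percentile and 3.61 with the median of all probes, 1.28 with cyclic loess, 3.01 with a lower floor (a 0.25 share of it), 0.61 with the floor at the highest limit, 0.69 with each array floored at its own limit, 1.89 with the detrended signal, 0.51 with normexp background, 0.019 without the filter and -0.10 in the authors' averages; the median of all probes moved with it, to 0.90, 1.36, 0.18, 1.01, 0.00, -1.56, -0.27, -1.37, -0.37 and -0.30. For untreated minus day 0 it was -0.028 with the highest floor, 0.00 without the filter, -0.30 with normexp, 0.11 with each array's own floor and 0.34 in the authors' averages. For LPS minus probiotic it was -1.36 in the authors' averages.

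The number called for probiotic against untreated was 45 with 1 probe per gene (of 66), 24 in the authors' averages and 37 with the highest floor. For untreated against day 0 it was 39, 38 with the detrended signal and 28 with the highest floor. For probiotic against day 0, where 7 were called, it was 44 with the detrended signal, 28 with array weights, 15 with the lower floor or the median of all probes, 13 with the 2 groups alone, each array's own floor or the replicates numbered 4 left out, 4 with 1 probe per gene or the 75th percentile of all probes, 3 with quantile normalization, 2 without the filter or in the outer bands of the array, 1 with normexp, 0 with the highest floor and 59 in the authors' averages. For LPS it was 7 with array weights, 2 with the lower floor, each array's own floor or the detrended signal, 1 with the 75th percentile, normexp or quantile normalization, and 79 in the authors' averages.

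Without 1 array the number called ran from 66 to 73 for probiotic against untreated, 51 to 67 for untreated against day 0, 3 to 12 for probiotic against day 0 and 0 to 1 for LPS, where 1 was called without LPS replicate 1. The medians ran from 2.15 to 2.66, -1.95 to -1.29, 0.23 to 0.64 and -0.36 to 0.02.

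Deviations of same-numbered arrays in 2 groups correlated at -0.24 to 0.33, and in no comparison was every pair over 0.1, so the numbers were taken only to name arrays. With the replicate number as a block, 77 (63 up, 14 down), 65 (15 up, 50 down), 7 and 0 probes were called for probiotic against untreated, untreated against day 0, probiotic against day 0 and LPS, with medians of 2.48, -1.53, 0.46 and -0.23. Among genes named, the block ended the calls of UQCRQ for probiotic against untreated (adjusted p = 0.0722, limma) and of NDUFA11 and NDUFB11 for untreated against day 0 (0.0552 and 0.0545).

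Genes named by rule turned sign on their brightest probe as follows. In the authors' averages, for probiotic minus untreated: NDUFA11 0.10, NDUFA4L2 0.22, NDUFA6 -1.57, SDHB -0.76, SDHD 0.25, CYC1 -0.70, UQCRB -0.060, UQCRH -1.80, COX6B2 0.57 and COX7A2 -1.06; for untreated minus day 0: NDUFA11 -0.061, NDUFA6 0.65, CYC1 0.90, UQCRH 0.41, COX6B1 0.32 and COX7A1 1.38; for probiotic minus day 0: SDHC -0.69 and COX6B2 0.32. With the detrended signal, NDUFA11 (-1.23), COX7A1 (0.21) and ATP5I (-0.48) turned for untreated minus day 0, and NDUFA3 (-4.51), NDUFA7 (-0.39) and SDHC (-2.35) for probiotic minus day 0. With the 75th percentile of all probes, NDUFA11 was -0.43 and COX8B -0.48 for untreated minus day 0, and COX8B 0.50 for probiotic minus untreated, which was 0.23 with the median of all probes. NDUFA11 was -0.35 with quantile normalization. NDUFA13 was -1.91 and 1.84 with cyclic loess for probiotic minus untreated and untreated minus day 0, and COX7A1 was 0.36 with each array's own floor for untreated minus day 0. Of other probes in the text, NDUFB11 (-0.34), UQCRFS1 (-0.043), COX7A2L (-1.50) and UQCRB A_73_P154247 (0.025) had the opposite sign in the authors' averages for probiotic minus untreated, NDUFA6 A_73_P116331 (-1.06) and COX8A (-0.76) for probiotic minus day 0, and NDUFB11 1.56, NDUFA6 A_73_P116331 (-1.38) and ATP5B A_73_P406256 1.36 for untreated minus day 0. NDUFB11 was -0.68 and 0.62 with cyclic loess for probiotic minus untreated and untreated minus day 0. For untreated minus day 0, NDUFS7 A_73_P110261 was 0.41 with each array's own floor. With the detrended signal NDUFA6 A_73_P116331 was -2.77 and COX8A -0.33 for probiotic minus day 0. Further turns among probes whose values the text does not give are not listed. The cause was not tested.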
